A study of Mus musculus with 36 samples.

Results

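The genes described here are 9 members of the transforming growth factor-β (TGF-β) system in epididymal white adipose tissue (eWAT), the visceral fat depot beside the epididymis. They are the ligands *Tgfb1*, *Tgfb2* and *Tgfb3*, the receptors *Tgfbr1*, *Tgfbr2* and *Tgfbr3*, and the matrix targets *Fn1*, *Postn* and *Lox*. Each was taken as the row of the deposited expression table whose Ensembl identifier maps to its symbol. Every symbol had 1 row, so these are 9 of 24750 genes, and all 9 passed the filter on low values in every fit. The eWAT of 36 male mice was profiled by RNA sequencing, with 3 mice in each of 12 groups that combine 2 genotypes, 3 diets and the presence or absence of a ligature. The wild-type (WT) mice were C57BL/6, and the CCL19-KI mice were a homozygous knock-in line in which the chemokine gene *Ccl19* was inserted at the *Adipoq* locus, so that adipocytes overexpress it while *Adipoq* itself remains. The WT mice were bred separately, so genotype and breeding cannot be told apart. Mice were fed a normal diet (ND), a 40% high-fat diet (HFD) or a 60% HFD, with percentages referring to fat, and in the ligatured groups a ligature around a molar induced periodontitis in the last 2 weeks of the 10 weeks of feeding. The labels give an age of 14 weeks for every mouse, which by the study's methods was the age when ligatures were placed, 2 weeks before the tissue was taken. The labels of 18 libraries name a ligature and those of the other 18 do not. The lymph nodes had been removed from the fat.

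TGF-β ligands are secreted in a latent form that is held in the matrix and must be activated before it binds. TGFBR2 binds the active ligand and recruits TGFBR1, which phosphorylates SMAD2 and SMAD3, and these enter the nucleus with SMAD4 to regulate transcription. TGFBR3, also called betaglycan, presents ligand to TGFBR2, above all TGF-β2, and can be shed as a soluble trap. In adipose tissue the pathway is known for restraining the differentiation of fat cells and for driving the deposition of matrix during obesity. Fibronectin (*Fn1*) and periostin (*Postn*) are matrix proteins that fibroblasts secrete in response to it, and lysyl oxidase (*Lox*) crosslinks collagen and elastin.

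The libraries held 11962228 to 21581595 reads, and values are CPM normalized by the authors (normalized CPM). The knocked-in gene was examined first, because it checks the genotype labels. *Ccl19* was at 0.507 to 4.51 normalized CPM in 17 of the WT libraries and at 5.57 to 34.6 in 17 of the CCL19-KI libraries. The library labelled ND WT replicate 2 stood at 19.2, within the range of the CCL19-KI libraries, and the library labelled 60% HFD CCL19-KI replicate 3 stood at 0.687, within that of the WT libraries. *Gm2564*, which was at 0 to 0.16 in the 17 WT libraries and at 11.6 to 107.9 in the 17 CCL19-KI libraries, was at 41.9 in the former and 0 in the latter. Both libraries are from mice without ligature, so the comparisons among ligatured mice do not contain them. They were kept under their labels, and results that rest on them are also given without both. Markers of other tissues also set libraries apart. The summed level of 8 hepatocyte markers ranged from 9.88 to 35224 normalized CPM, and a list of 8 epididymis markers had a mean log2 level of 9.08 in the library labelled ND WT replicate 2 and 8.03 in 60% HFD CCL19-KI replicate 2. All 8 adipocyte markers were detected, at a summed 4517 to 25104.

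The letters just before the start of 3 members are shown because these genes moved in different ways with the 60% HFD: *Tgfb1* and *Postn* rose and *Tgfb2* fell among ligatured CCL19-KI mice. Each run holds the 250 bases before the start site of the RefSeq transcript, in GRCm38.p6, on the strand of the gene. Capitals mark a SMAD-binding CAGAC or a GC box, GGGCGG, searched on both strands, and the TATA box, TATAAA, searched on the strand of the gene. No 2 marked motifs overlap.
Tgfb1, chr7:25686752-25687001, plus strand: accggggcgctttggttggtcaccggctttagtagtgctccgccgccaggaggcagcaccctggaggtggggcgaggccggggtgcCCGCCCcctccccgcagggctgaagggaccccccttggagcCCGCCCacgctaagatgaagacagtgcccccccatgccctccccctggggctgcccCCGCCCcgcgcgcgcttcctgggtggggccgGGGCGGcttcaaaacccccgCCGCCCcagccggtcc
Tgfb2, chr1:186705990-186706239, minus strand: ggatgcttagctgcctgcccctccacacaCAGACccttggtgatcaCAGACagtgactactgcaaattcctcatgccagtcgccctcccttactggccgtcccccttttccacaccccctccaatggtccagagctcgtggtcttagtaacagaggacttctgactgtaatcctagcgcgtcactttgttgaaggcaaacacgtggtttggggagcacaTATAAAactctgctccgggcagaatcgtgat
Postn, chr3:54360857-54361106, plus strand: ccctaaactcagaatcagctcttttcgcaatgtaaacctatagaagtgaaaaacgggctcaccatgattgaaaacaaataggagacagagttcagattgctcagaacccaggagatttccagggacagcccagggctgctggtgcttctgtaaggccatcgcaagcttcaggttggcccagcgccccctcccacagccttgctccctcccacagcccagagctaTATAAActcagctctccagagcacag
The *Tgfb1* window holds 5 GC boxes and is 75.2% G and C, with neither CAGAC nor a TATA box. The *Tgfb2* window holds 2 CAGAC and a TATA box that begins 31 bases before the start, and is 53.6% G and C. The *Postn* window, 1 of 2 listed for this gene, holds a TATA box that begins 26 bases before the start and neither of the other motifs, at 52.0% G and C. Of 32851 promoter windows of this length, 42.2% hold CAGAC, 32.7% a GC box and 7.59% TATAAA. *Tgfbr1* and *Tgfbr2* also had an entry, with 2 GC boxes and 1 CAGAC, respectively. *Tgfb3*, *Tgfbr3* and *Fn1* are named only.

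In GENCODE M21 on GRCm38, the ligand genes *Tgfb1* (ENSMUSG00000002603), *Tgfb2* (ENSMUSG00000039239) and *Tgfb3* (ENSMUSG00000021253) lie at chr7:25687002-25705077, chr1:186622792-186705989 and chr12:86056745-86079041. The receptor genes *Tgfbr1* (ENSMUSG00000007613), *Tgfbr2* (ENSMUSG00000032440) and *Tgfbr3* (ENSMUSG00000029287) lie at chr4:47353222-47414931, chr9:116084293-116175360 and chr5:107106570-107289629. The target genes *Fn1* (ENSMUSG00000026193), *Postn* (ENSMUSG00000027750) and *Lox* (ENSMUSG00000024529) lie at chr1:71585520-71653200, chr3:54361109-54391037 and chr18:52516067-52529867.

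Per kilobase of exon, the mean level over the 36 libraries was highest for *Fn1*, at 129 normalized CPM per kb, followed by *Lox* at 35.3, *Tgfbr3* at 29.9, *Postn* at 24.5 and *Tgfbr2* at 23.3. The ligands were lower, with *Tgfb3* at 13.8, *Tgfb1* at 5.12 and *Tgfb2* at 1.45, and *Tgfbr1* stood between them at 6.95. No member was near the limit of detection, since the lowest value of all was 50 reads for *Tgfb2*. *Postn* varied most between mice, 7.76-fold from the lowest to the highest library, and *Tgfbr1* least, 1.90-fold. When the 12 groups were ordered by mean level, neighbouring groups overlapped within mean ± SD (n = 3 each) for every member, so the order is one of small steps. The group with the highest mean was ligatured 60% HFD CCL19-KI for *Tgfb1* (36.4 ± 4.25), ligatured ND CCL19-KI for *Tgfb2* (12.5 ± 2.07) and *Tgfb3* (58.6 ± 8.05), and ligatured ND WT for *Tgfbr2* (255 ± 20.4) and *Tgfbr3* (335 ± 42.7). By limma, the 12 groups differed for *Tgfb1* (adjusted p = 0.0167) and *Tgfbr3* (adjusted p = 0.00426), 2 of 9 members where 24.1% of all genes tested differed. Without the 2 libraries at odds with their labels, *Fn1* was called as well (adjusted p = 0.0368), where 31.1% of all genes were called.

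**Figure D1:**
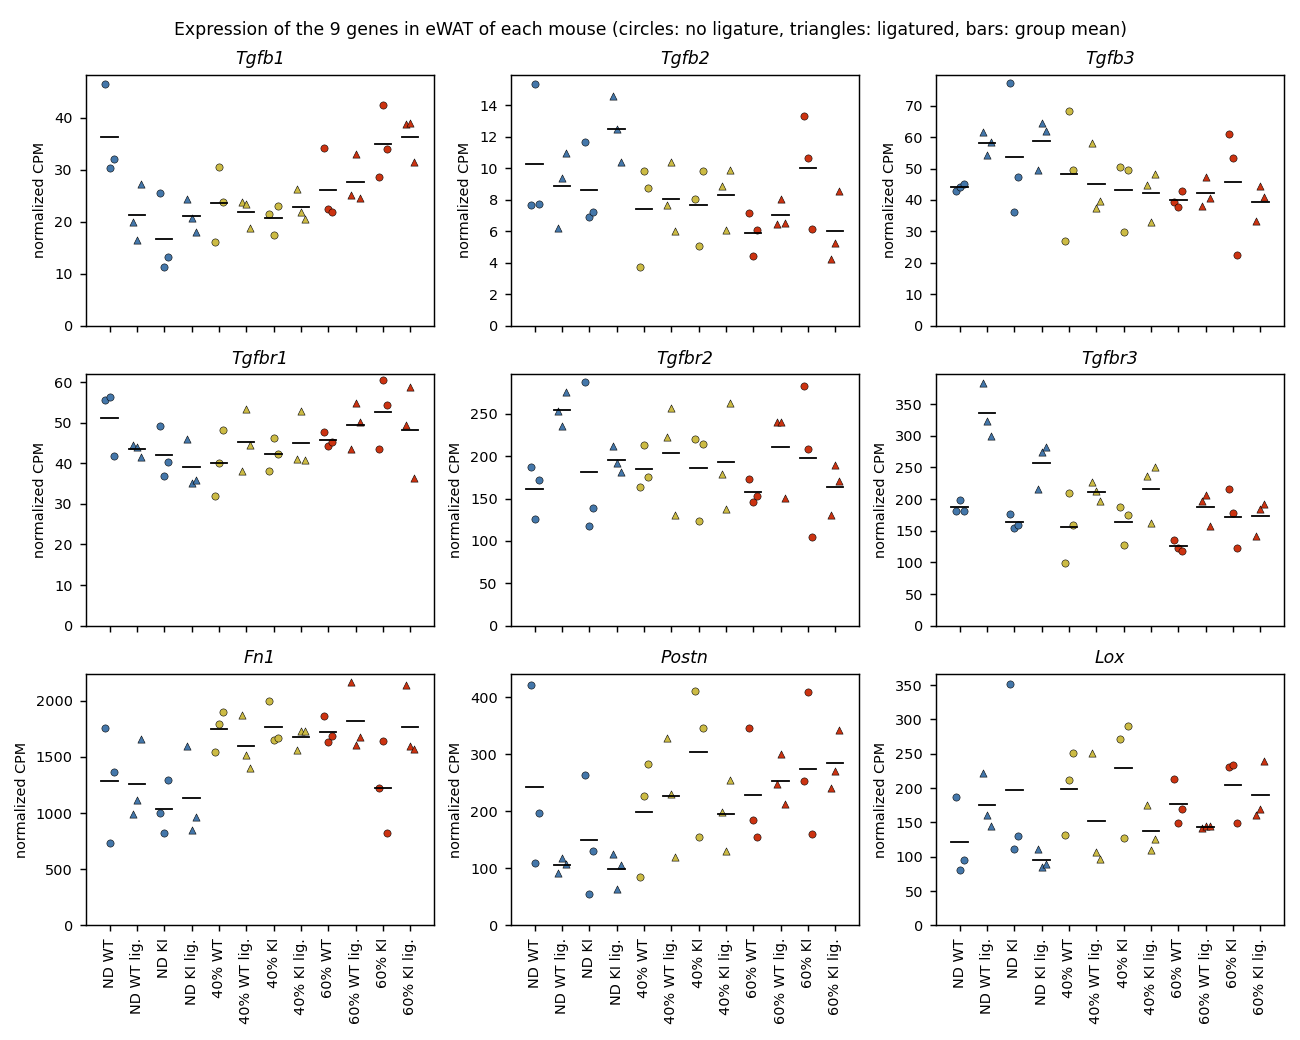
Normalized CPM of each of the 9 genes in each mouse by group (circles without ligature, triangles ligatured, bars the mean of 3 mice, colours the diet). *Tgfbr3* reaches 300.1 to 383 in ligatured ND WT mice, above every other group, and *Fn1* is at 1398 or more in all mice fed the 40% HFD.

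Which members differed between diets was asked first, averaging over genotype and ligature so that 12 mice stood against 12. Bulk tissue was measured, so fewer cells of a type and less RNA per cell cannot be told apart. With the 60% HFD, *Tgfb1*, *Fn1* and *Postn* rose and *Tgfbr3* fell compared with the ND: 4 of 9 members by adjusted p (limma with Benjamini-Hochberg adjustment over 17852 genes), where 18.6% of all genes tested were called (10.2% higher and 8.4% lower). The median log2 fold change was 0.16 over the members and 0.01 over all genes.

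*Tgfb1*, the ligand that is produced by macrophages and most stromal cells, had a lowest, median and highest value of 11.4, 22.6 and 46.6 in mice fed an ND, 16.2, 22.5 and 30.6 with the 40% HFD, and 21.8, 32.3 and 42.4 with the 60% HFD. The ranges overlap, and the median shifts only with the 60% HFD. Not every group rose. In WT mice without ligature the mean ± SD was 36.3 ± 8.93 with the ND and 26.2 ± 6.95 with the 60% HFD. The log2 fold change was 0.44 ± 0.13 (SE; adjusted p = 0.0177) with the 60% HFD and −0.02 ± 0.13 (adjusted p = 0.946) with the 40% HFD. After quantile normalization the former was 0.36 (adjusted p = 0.0527). *Tgfb2* and *Tgfb3*, ligands of mesenchymal cells, had lower means with the 60% HFD, 7.24 against 10.0 and 41.8 against 53.6, and neither passed the adjusted test (log2 fold changes −0.43 and −0.36, adjusted p = 0.0615 and 0.0965).

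Among the receptors, *Tgfbr3* ran from 154 to 383 (median 207) in mice fed an ND, from 98.9 to 250 (median 192) with the 40% HFD and from 118 to 216 (median 167) with the 60% HFD. The highest values of the ND group all came from ligatured mice. The fall with the 60% HFD was −0.49 ± 0.11 on the log2 scale (adjusted p = 0.00409), and that with the 40% HFD did not pass (−0.31 ± 0.11, adjusted p = 0.0681). The signalling receptors differed less: *Tgfbr1* had a log2 fold change of 0.16 (95% interval −0.03 to 0.34) and *Tgfbr2* one of −0.12 (−0.45 to 0.22) with the 60% HFD, and neither was called.

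Of the targets, *Fn1* ranged from 731 to 1759 (median 1056) in mice fed an ND, from 1398 to 1996 (median 1697) with the 40% HFD and from 824 to 2165 (median 1637) with the 60% HFD. It was the member called with both HFDs, with a log2 fold change of 0.57 ± 0.14 (adjusted p = 0.0138) for the 40% HFD, where it was 1 of 9 members called against 9.21% of all genes, and 0.49 ± 0.14 (adjusted p = 0.0184) for the 60% HFD. Quantile normalization ended both calls, at 0.36 (adjusted p = 0.112) and 0.37 (adjusted p = 0.0694). *Postn* ranged from 54.4 to 422 (median 115) with the ND and from 155 to 409 (median 250.3) with the 60% HFD. The groups overlap because of ND mice at 197, 263 and 422, none of them ligatured, and the last, ND WT replicate 1, is the highest of all 36. Its log2 fold change was 0.97 ± 0.27 (adjusted p = 0.0143), the largest of the members, and 0.72 ± 0.27 with the 40% HFD (adjusted p = 0.0826). *Lox* had a mean of 179 with either HFD and 148 with the ND, and was not called (log2 fold changes 0.39 and 0.31, adjusted p = 0.158 and 0.313).

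Between the HFDs no member was called by limma, where 0.745% of all genes were. *Tgfb1* came nearest, with a log2 fold change of 0.46 ± 0.13 for the 60% against the 40% HFD (adjusted p = 0.0781), and it was the 1 member with an unadjusted p below 0.05, as 13.2% of all genes had. edgeR called 0 members as well.

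Without the 2 libraries at odds with their labels, the same 4 members were called for the 60% HFD, where 15% of all genes were: *Tgfb1* at 0.42 (adjusted p = 0.0409), *Tgfbr3* at −0.42 (0.0137), *Fn1* at 0.46 (0.0138) and *Postn* at 0.94 (0.0216). *Fn1* remained the 1 member called for the 40% HFD, at 0.48 (adjusted p = 0.0171). With all libraries but each ligature state fitted alone, *Fn1* was not called for the 40% HFD. It was at 0.49 in ligatured mice (adjusted p = 0.0713) and 0.66 in the others (adjusted p = 0.316). With the mean log2 level of smooth muscle markers as a covariate it was at 0.52 (adjusted p = 0.0595). Without the 2 epididymal libraries, *Tgfbr3* alone was called for the 60% HFD, and *Tgfb1*, *Fn1* and *Postn* had adjusted p-values of 0.0586, 0.0671 and 0.0552. Leaving out the 9 libraries richest in hepatocyte markers left 1 mouse in some groups, so only effect sizes are given here. The log2 fold changes of *Tgfb1*, *Fn1* and *Postn* were then 0.39, 0.54 and 0.90. In the 18 ligatured mice alone the 4 log2 fold changes were 0.57, −0.71, 0.62 and 1.40, in the order *Tgfb1*, *Tgfbr3*, *Fn1* and *Postn*, each with an adjusted p below 0.05, and in the 18 other mice they were 0.31, −0.27, 0.36 and 0.54, with an adjusted p of 0.969 for each. The share of all genes called was not taken in the fits of each ligature state alone, so the calls lost there are not a result about these members. The difference between ligature states is tested further on.

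**Figure D2:**
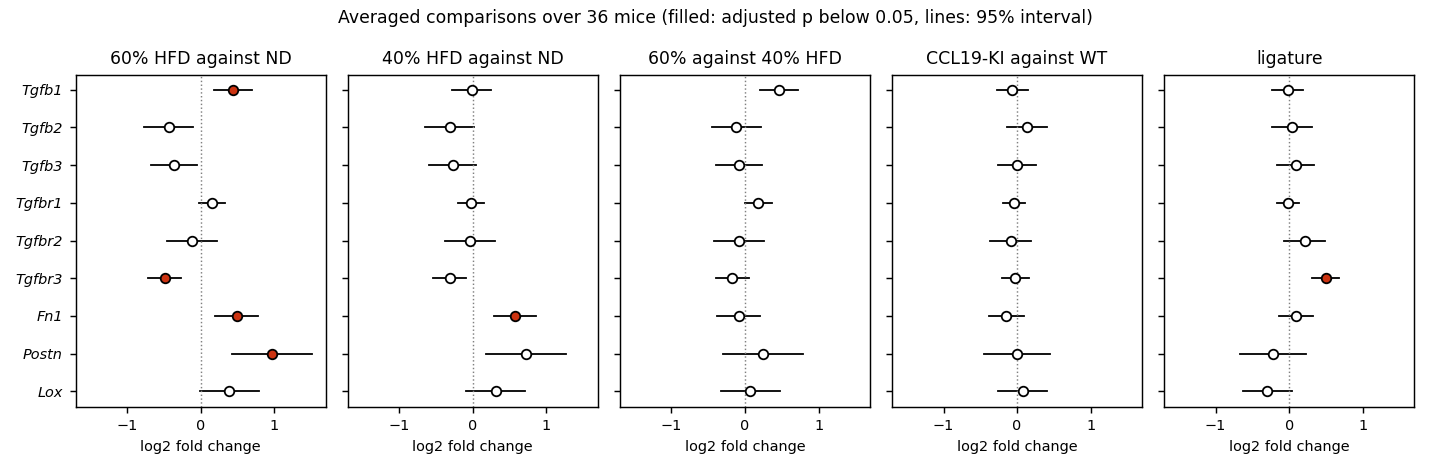
Log2 fold changes of the 9 genes in the 5 averaged comparisons of 36 mice, with 95% intervals as lines and filled points where the adjusted p is below 0.05. Filled points are *Tgfb1*, *Tgfbr3*, *Fn1* and *Postn* for the 60% HFD against the ND, *Fn1* for the 40% HFD and *Tgfbr3* for the ligature.

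The genotype effect was averaged over diet and ligature, with 18 mice against 18. No member was called, nor did any reach an unadjusted p below 0.05, as 16.9% of all genes did, and edgeR called 0 members. limma called 0.459% of all genes. The log2 fold change nearest to the threshold was that of *Fn1*, −0.15 (95% interval −0.38 to 0.09, adjusted p = 0.533). The widest interval, that of *Postn*, ran from −0.45 to 0.45. Without the 2 libraries at odds with their labels, the share of genes called rose to 7.35%, and still 0 of the 9 members were among them. The lowest adjusted p was then that of *Tgfb2*, at 0.237, with a log2 fold change of 0.23 (95% interval −0.02 to 0.49).

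Within diet and ligature state, 3 CCL19-KI mice stood against 3 WT mice in 6 comparisons, and 1 of 54 pairs of member and comparison was called by limma and 0 by edgeR, while 3 had an unadjusted p below 0.05. The share of all genes at that unadjusted threshold is not given for these comparisons. In mice fed an ND without ligature, *Tgfb1* was at 46.6, 30.3 and 32.2 in WT and at 25.6, 11.4 and 13.1 in CCL19-KI mice. The groups do not overlap, where 28.1% of all genes tested did not. The log2 fold change was −1.13 ± 0.30 (adjusted p = 0.0399, with 7.28% of all genes called), and −1.25 ± 0.35 (adjusted p = 0.0402) without the libraries at odds with their labels. The hepatocyte list moved with it: its summed level was 12.0 to 15.1 in these WT and 537 to 22932 in these CCL19-KI mice. The mean log2 levels of the mesothelial and kidney tubule lists were also apart and higher in these CCL19-KI mice, at 6.40 to 7.77 against 5.68 to 5.87 and 1.99 to 3.11 against 1.02 to 1.11, and that of the adipocyte list was apart and lower, at 8.54 to 9.90 against 9.91 to 10.8. The other 8 of the 12 marker lists overlapped. With the hepatocyte score as a covariate the log2 fold change was −0.23 (adjusted p = 0.946), and the part of the mesothelial, kidney tubule and adipocyte lists was not tested. Without a filter, with quantile normalization or with the epididymis score the adjusted p was 0.0506, 0.0606 or 0.0523, and it was 0.0563 without the 2 epididymal libraries. Leaving out the hepatocyte-rich libraries left only replicate 1 of these CCL19-KI mice, and the log2 fold change was then −0.46. edgeR gave −1.05 with an adjusted p of 0.0578, and leaving out ND WT replicate 1, 2 or 3 gave an adjusted p of 0.127, 0.051 or 0.0981, and ND CCL19-KI replicate 2 or 3 one of 0.196 or 0.162. The spread of the other groups also enters this fit, and without 40% HFD WT replicate 3, any of the 40% HFD CCL19-KI mice or 60% HFD WT replicate 2, all without ligature, the adjusted p was between 0.0506 and 0.055. In the other 5 comparisons the log2 fold change of *Tgfb1* lay between −0.15 and 0.42, with no call for it or any other member. Among all genes, limma called 2.22, 0.042 and 0.0781% in the ligatured mice fed the ND, the 40% and the 60% HFD, and 0 and 4.06% in the mice without ligature fed the 40% and the 60% HFD.

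Whether a ligature on a molar goes with a difference in eWAT was asked next. When diets and genotypes were averaged, *Tgfbr3* rose, 1 of 9 members, where 0.325% of all genes were called. In ligatured mice it ranged from 141 to 383 (median 214) and in the other mice from 98.9 to 216 (median 168). The ranges overlap, and the ligatured ND mice of both genotypes, except one at 215, lie above all mice without ligature. The log2 fold change was 0.50 ± 0.09 (adjusted p = 0.0147), and 0.47 ± 0.09 (adjusted p = 0.0192) without the 2 libraries at odds with their labels. Without the 9 libraries richest in hepatocyte markers it was 0.40 (adjusted p = 0.224). The other 8 members had log2 fold changes between −0.30 (*Lox*) and 0.21 (*Tgfbr2*), with none called.

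By diet and genotype, the rise of *Tgfbr3* was called in 1 of 6 comparisons, by limma and by edgeR, and of the 54 pairs of member and comparison 6 had an unadjusted p below 0.05. The share of all genes at that unadjusted threshold is not given here either. In WT mice fed an ND, *Tgfbr3* was at 383, 323 and 300.1 with the ligature and at 182, 198 and 181 without it. The groups lie far apart, and in this comparison 4 of 9 members did not overlap, against 29.5% of all genes. The log2 fold change was 0.83 ± 0.22 (adjusted p = 0.0246, with 6.73% of all genes called), and 0.88 without the library labelled ND WT replicate 2 and the other at odds with its label (adjusted p = 0.0184). Leaving out ND WT replicate 1 or 3, or ligatured ND WT replicate 1 or 2, gave adjusted p-values of 0.0875, 0.0626, 0.148 and 0.0804, and quantile normalization one of 0.0568. Of 12 marker lists, 4 were apart between these groups. The mean log2 level of the hepatocyte list was 5.74 to 8.51 with and 0.653 to 0.921 without the ligature, that of the mesothelial list 7.05 to 7.37 and 5.68 to 5.87, that of the kidney tubule list 1.15 to 2.70 and 1.02 to 1.11, and that of the epididymis list 0.111 to 0.457 and 0.504 to 9.08. With the hepatocyte score in the fit the log2 fold change of *Tgfbr3* was 1.07 (adjusted p = 0.0359), and the part of the mesothelial and kidney tubule lists was not tested. The log2 fold changes elsewhere were 0.65 in ND CCL19-KI, 0.50 and 0.40 in 40% HFD WT and CCL19-KI, and 0.57 and 0.03 in 60% HFD WT and CCL19-KI mice, with no call. limma called 1.37% of all genes in ND CCL19-KI and 5.66% in 60% HFD CCL19-KI mice, and 0 in the other 3 groups. *Tgfb1* had the opposite sign in ND WT mice, −0.75 (adjusted p = 0.0681), with 20.1, 16.5 and 27.2 in ligatured mice against the 46.6, 30.3 and 32.2 given above.

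Comparing the 60% HFD with the ND among ligatured CCL19-KI mice gave the most calls among the members. Of 9 members, 6 were called, where 22.3% of all genes were (12.8% higher and 9.49% lower): *Tgfb1*, *Postn* and *Lox* rose, and *Tgfb2*, *Tgfb3* and *Tgfbr3* fell. The ND and 60% HFD groups did not overlap for these same 6 members, while 38% of all genes did not overlap. The median log2 fold change was 0.28 over the members and 0.00272 over all genes.

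The ligand *Tgfb1* was at 24.4, 20.8 and 18.0 with the ND and at 38.8, 38.9 and 31.5 with the 60% HFD. Every 60% HFD value is above every ND value. The log2 fold change was 0.77 ± 0.18 (adjusted p = 0.0101), and this call held when any single library was left out. *Tgfb2* went the other way, with 14.6, 12.5 and 10.4 against 4.27, 5.27 and 8.57, which is a change of −0.97 ± 0.26 on the log2 scale (adjusted p = 0.0163). *Tgfb3* fell as well, from 49.4, 64.5 and 61.9 to 33.3, 44.3 and 40.8 (−0.56 ± 0.18, adjusted p = 0.0382). *Tgfb1* and the other ligands thus differed in opposite directions between these groups of mice.

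*Tgfbr3* was at 215, 275 and 282 with the ND and at 141, 185 and 193 with the 60% HFD. The highest 60% HFD mouse lies below the lowest ND mouse, and the log2 fold change was −0.57 ± 0.18 (adjusted p = 0.0347). *Postn* was at 126, 63.2 and 107 with the ND and at 241, 271 and 342 with the 60% HFD. It rose by 1.56 ± 0.34 on the log2 scale (adjusted p = 0.00603), the largest change of any member in any comparison that was called. No single library ended the call, but the fit of all 36 mice gave an adjusted p of 0.0519. *Lox* was at 111, 85.6 and 89.3 against 161, 169 and 239, a rise of 0.97 ± 0.30 (adjusted p = 0.0317). *Fn1*, at 1596, 849 and 970.0 against 2139, 1599.6 and 1569, overlapped between the groups and was not called (0.68 ± 0.25, adjusted p = 0.0635).

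In the fit of all 36 mice the adjusted p was 0.209 for *Tgfb3*, 0.0765 for *Tgfbr3* and 0.0909 for *Lox*, and quantile normalization gave *Lox* an adjusted p of 0.122. Several of these calls also rest on single libraries. Without ligatured ND CCL19-KI replicate 2, the adjusted p was 0.0587 for *Tgfb2*, 0.142 for *Tgfb3*, 0.124 for *Tgfbr3* and 0.111 for *Lox*, and without ligatured 60% HFD CCL19-KI replicate 1 it was 0.083, 0.157, 0.154 and 0.0596. Without ligatured ND CCL19-KI replicate 3 it was 0.109 for *Tgfb3*, 0.113 for *Tgfbr3* and 0.0845 for *Lox*, and without ligatured 60% HFD CCL19-KI replicate 3 it was 0.0594 for *Tgfb3* and 0.095 for *Lox*. Of 12 marker lists, the mesothelial and the epididymis list were apart between these groups, with mean log2 levels of 6.67 to 7.32 and 0.953 to 2.61 in the ND and 4.31 to 6.44 and 0.145 to 0.257 in the 60% HFD mice. Over the 36 libraries the mesothelial list had a Pearson r of 0.66 with *Tgfb3*, 0.44 with *Tgfb2* and 0.41 with *Tgfbr3*, and its part in these differences was not tested. The summed level of the hepatocyte list overlapped, at 9.88 to 5849 in the ND and 1887 to 17503 in the 60% HFD mice, as did that of the smooth muscle list, at 148 to 5482 and 191 to 355. With the hepatocyte score, *Postn* was called and *Tgfb1* had an adjusted p of 0.0693. *Tgfb2*, *Tgfb3* and *Tgfbr3* lost their calls with the hepatocyte, the smooth muscle or the epididymis score, and *Lox* with the hepatocyte score (0.19).

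Ligatured WT mice showed 2 of these changes, where 7.29% of all genes were called. *Tgfbr3* was at 383, 323 and 300.1 with the ND and at 198, 206 and 157 with the 60% HFD, a fall of −0.84 ± 0.18 on the log2 scale (adjusted p = 0.0154). *Postn* was at 91.5, 119 and 107 with the ND and at 247, 301 and 212 with the 60% HFD, a rise of 1.24 ± 0.34 (adjusted p = 0.0402). For both genes the groups are apart, and 4 of 9 members did not overlap, against 36.9% of all genes. Without ligatured ND WT replicate 1 the adjusted p was 0.0933 for *Tgfbr3* and 0.164 for *Postn*. *Tgfbr3* was at 0.0505 without ligatured ND WT replicate 2 and at 0.0597 without ligatured 60% HFD WT replicate 3, and *Postn* was between 0.0529 and 0.131 without ligatured ND WT replicate 2 or 3, any of the ligatured 60% HFD WT mice, or ligatured 40% HFD CCL19-KI replicate 1. *Tgfb1* had a log2 fold change of 0.38 and *Lox* one of −0.27 in these mice, neither called. For *Postn* the fit of all 36 mice gave an adjusted p of 0.205, and it lay between 0.0554 and 0.06 without a filter, with quantile normalization, with the epididymis score or without the hepatocyte-rich libraries. Of 12 marker lists, 4 were apart between these groups. The mean log2 level of the hepatocyte list was 9.10 to 10.6 with the 60% HFD and 5.74 to 8.51 with the ND, that of the mesothelial list 6.30 to 6.52 and 7.05 to 7.37, that of the endothelial list 3.80 to 3.85 and 3.95 to 4.14, and that of the smooth muscle list 2.18 to 2.33 and 2.43 to 3.09. With the hepatocyte score in the fit both calls held, at −0.73 for *Tgfbr3* (adjusted p = 0.021) and 1.30 for *Postn* (adjusted p = 0.0423), and the part of the mesothelial and endothelial lists was not tested.

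In mice without ligature, limma and edgeR called 0 members for the 60% HFD against the ND in either genotype, where limma called 2.25% of all genes in WT and 0.124% in CCL19-KI mice. An unadjusted p below 0.05 was reached by 1 member in each, *Tgfbr3* in WT and *Tgfb1* in CCL19-KI mice, where 11.7 and 24.1% of all genes reached it. With the ND, *Tgfb1* was at 25.6, 11.4 and 13.1 in CCL19-KI mice, and it was at 28.6, 42.4 and 34.1 with the 60% HFD. The groups were apart, as for 17.7% of all genes, with a log2 fold change of 1.09 ± 0.30 (adjusted p = 0.107). Without the library labelled 60% HFD CCL19-KI replicate 3 and the other at odds with its label, it was 1.10 ± 0.35 (adjusted p = 0.158). *Postn* ranged widely among mice without ligature, from 54.4 to 422 with the ND and from 155 to 409 with the 60% HFD. In WT mice without ligature its mean was 243 with the ND and 228 with the 60% HFD. The mean of *Tgfb1* in the same WT mice was 36.3 with the ND and lower, 26.2, with the 60% HFD, with overlapping groups. With the 40% HFD, 0 members were called by limma or edgeR against the ND in each of the 4 combinations of genotype and ligature, where limma called 1.35% of all genes in ligatured WT, 11.7% in ligatured CCL19-KI, 2.67% in other WT and 0 in other CCL19-KI mice. In the same order, 2, 4, 0 and 1 members had an unadjusted p below 0.05, as 17.2, 29.7, 16.6 and 5.5% of all genes did. The nearest to the threshold was *Postn* in ligatured CCL19-KI mice, with a log2 fold change of 0.98 ± 0.34 (adjusted p = 0.0712). Between the HFDs limma and edgeR called 0 members as well, with 0, 0.0961, 0 and 0.142% of all genes called. *Tgfb1* was the 1 member with an unadjusted p below 0.05 in both CCL19-KI comparisons, for which the share of all genes at that threshold is not given. In all, 8 of 108 pairs of member and diet comparison were called.

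**Figure D3:**
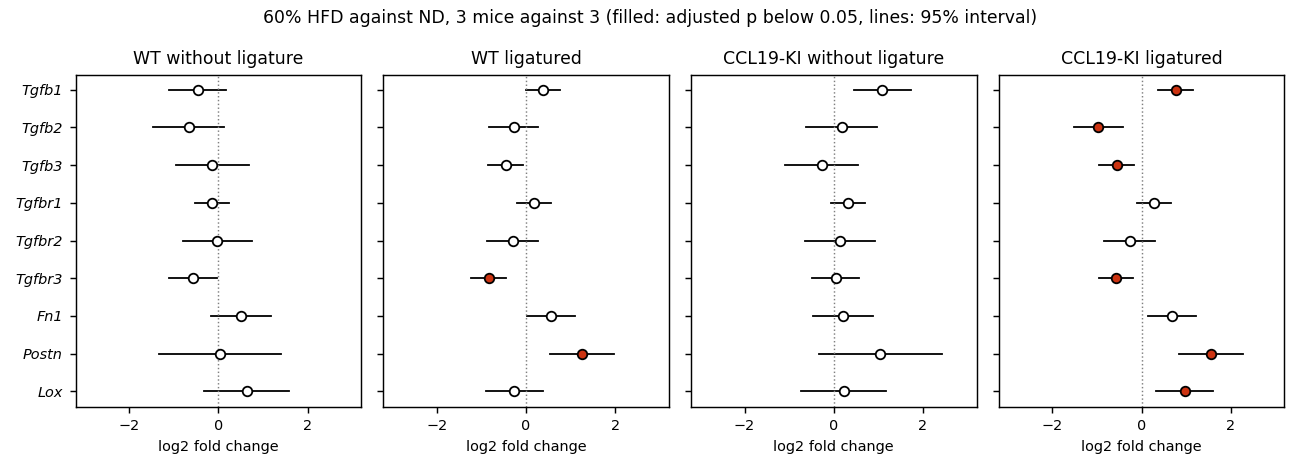
Log2 fold changes of the 9 genes for the 60% HFD against the ND, 3 mice against 3, in each genotype and ligature state, with 95% intervals as lines and filled points where the adjusted p is below 0.05. Filled points are 6 in ligatured CCL19-KI mice, 2 in ligatured WT mice and 0 in both groups without ligature.

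A call in one genotype or ligature state and not in another does not show a difference between them, so the differences between effects were tested. limma called 0 of 45 pairs of member and difference, where 0 to 0.476% of all genes were called in the 5 contrasts. In the 2 with 1 gene called each, this was 0.0056%. The 3 pairs with an unadjusted p below 0.05 were all *Tgfb1*, in the contrasts of the genotype effect between ligature states, the 40% HFD and the ND, and the 60% HFD and the ND, where 10.8, 11 and 22.3% of all genes had one. The nearest was the genotype effect on *Tgfb1*, which was 0.97 higher with the 60% HFD than with the ND (95% interval 0.45 to 1.49, adjusted p = 0.0656). edgeR called that 1 pair. Without the libraries at odds with their labels it was 1.03 (95% interval 0.47 to 1.59, adjusted p = 0.0701). The ligature effect on *Tgfbr3* with the 60% HFD minus that with the ND was −0.44 (95% interval −0.89 to 0.01, adjusted p = 0.359), and for *Postn* it was 0.86 (−0.23 to 1.96, adjusted p = 0.457). These intervals are wide, and neither equal nor unequal effects follow from them.

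Other genes of the pathway were taken from 5 lists of 61 genes: latency and activation, co-receptors and related receptors, SMADs and their regulators, response genes, and matrix assembly and crosslinking. *Il11* did not pass the filter, and 60 were tested. With the 60% HFD, 8 rose and 4 fell compared with the ND, so 12 of 60 were called, where 18.6% of all genes were. The median log2 fold change was 0.14 over the lists and 0.01 over all genes.

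Of 11 latency and activation genes, 2 rose and none fell. *Thbs1*, encoding thrombospondin-1, which can activate latent TGF-β, had a mean of 393 against 229 normalized CPM (log2 fold change 0.76, adjusted p = 0.0333). *Lrrc32*, encoding GARP, which holds latent TGF-β on the cell surface, had a mean of 11.1 against 8.25 (0.40, adjusted p = 0.0342). Both were also called with the 40% HFD, *Thbs1* at 1.38 (adjusted p = 0.00299) with a mean of 671 and *Lrrc32* at 0.43 (adjusted p = 0.0397). Without the libraries at odds with their labels, *Thbs1* was called with both diets and *Lrrc32* had adjusted p-values of 0.0703 and 0.0558.

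Of 8 co-receptors, *Bambi*, a pseudoreceptor that inhibits signalling, fell, from 5.51 to 3.49 (−0.56, adjusted p = 0.0145). Of 12 SMADs and regulators, *Zfyve9*, encoding the adaptor SARA that brings SMAD2 and SMAD3 to the receptor, fell, from 54.9 to 47.4 (−0.22, adjusted p = 0.0357; 0.0781 without the libraries at odds with their labels). *Smad2*, *Smad3* and *Smad7* had log2 fold changes of 0.10, 0.15 and 0.26 and were not called.

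Of 14 response genes tested, 3 rose and 1 fell. *Tnc*, encoding the matrix protein tenascin-C, had a mean of 10.5 against 4.74 (1.21, adjusted p = 0.00449), *Nox4*, an NADPH oxidase, 29.2 against 15.0 (1.03, adjusted p = 0.019) and *Ccn1*, a matricellular protein, 53.9 against 30.8 (0.75, adjusted p = 0.0328). *Tgfbi*, a matrix protein named for its induction by TGF-β, fell from 147 to 109 (−0.46, adjusted p = 0.0178). *Nox4* and *Tgfbi* were called in the same directions with the 40% HFD (1.15 and −0.44, adjusted p = 0.0188 and 0.0348). The widely used response gene *Ccn2*, a matricellular protein, was not called, at −0.05 (adjusted p = 0.923).

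Of 15 matrix assembly genes, *Sparc*, a collagen-binding protein, rose from 2713 to 4507 (0.94, adjusted p = 0.00873), and *Bmp1*, a procollagen proteinase, and *Tgm2*, a crosslinking transglutaminase, rose by 0.34 and 0.41 on the log2 scale (adjusted p = 0.0135 and 0.0228). *Fbln1*, encoding fibulin-1, fell by 0.71 on the log2 scale (adjusted p = 0.0439; 0.125 without the libraries at odds with their labels). The collagen genes *Col1a1* and *Col3a1* were at −0.15 and 0.15 and not called. Without the 9 hepatocyte-rich libraries the calls of pathway genes for the 60% HFD did not hold. That fit left 1 mouse in some groups and has no share of all genes beside it, so it gives no result about these genes. In the remaining averaged comparisons limma and edgeR called 0 of the 60 genes, and 7 had an unadjusted p below 0.05 for the 60% against the 40% HFD, 4 for the genotype and 13 for the ligature. Of all genes, 13.2% had one between the HFDs and 16.9% for the genotype. The share for the ligature is not given, so that count has nothing to be set against. Without the 2 libraries at odds with their labels, limma called *Smad2* and *Bambi* for the genotype, where it called 7.35% of all genes. Their log2 fold changes were −0.16 and 0.30 (adjusted p = 0.0222 and 0.0464).

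**Figure D4:**
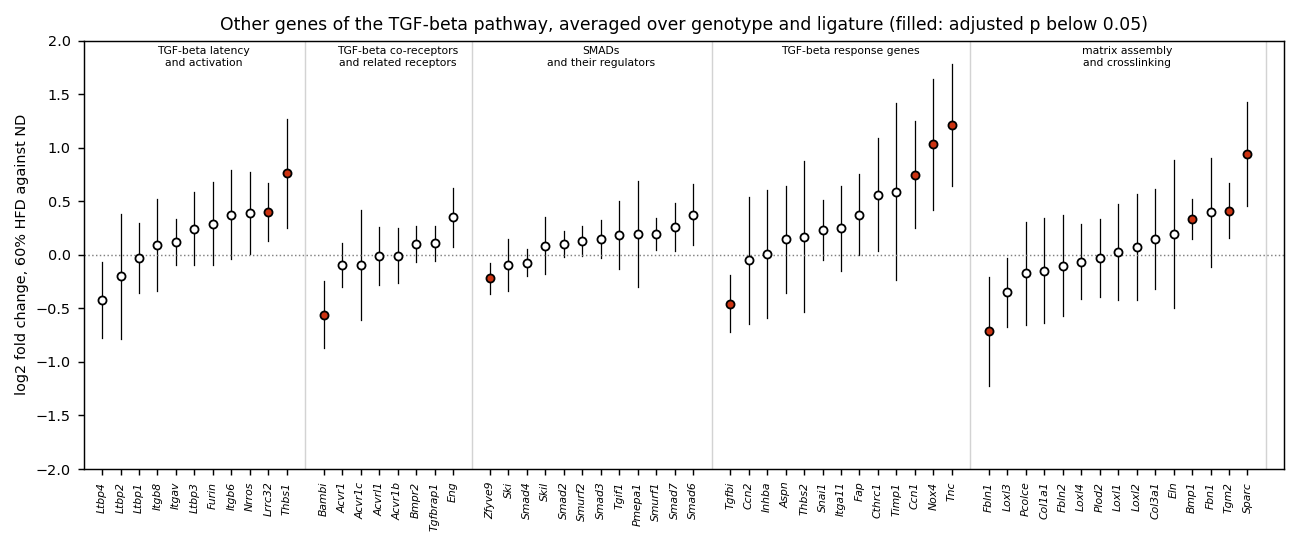
Log2 fold change for the 60% HFD against the ND of genes of the 5 pathway lists, grouped by list, with 95% intervals as lines and filled points where the adjusted p is below 0.05. Among them, 8 filled points lie above 0, led by *Tnc* at 1.21, and 4 lie below 0, the lowest being *Fbln1* at −0.71.

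Markers of other cells moved with the diet. All 8 hepatocyte markers rose with either HFD, with a median log2 fold change of 3.05 for the 60% and 3.90 for the 40% HFD, and their summed level ran from 9.88 to 22932 with the ND, from 388 to 35224 with the 40% HFD and from 10.6 to 32652 with the 60% HFD; no marker was at 0 in all libraries. *Fn1*, which hepatocytes also express, had a Pearson r of 0.54, on the log2 scale, with the mean log2 level of this list, *Tgfb2* one of −0.53 and *Postn* one of 0.05, over 36 libraries that share their groups. With the hepatocyte score in the fit, the log2 fold change of *Fn1* was 0.34 for the 60% HFD (adjusted p = 0.192) and 0.39 for the 40% HFD (adjusted p = 0.283), *Tgfbr3* had an adjusted p of 0.0585 for the 60% HFD, and *Tgfb1* and *Postn* were called. Of 8 fibroblast and progenitor markers, 0 were called in the 5 averaged comparisons, and their summed level was 1208 to 4723 over all libraries. Of 8 macrophage markers, *Adgre1* and *Cd68* rose and *Cd163* fell with the 60% HFD, with a summed level of 861 to 3486 with the ND and 851 to 2839 with the 60% HFD. Of 8 mesothelial markers, *Wt1* and *Upk1b* fell with the 60% HFD, with a summed level of 508 to 2397 with the ND and 177 to 1598 with the 60% HFD. Of 8 endothelial markers, *Cdh5*, *Tek* and *Cldn5* rose with both HFDs and *Esam* fell with the 60% HFD, with a summed 120.1 to 229 with the ND and 140.1 to 334 with the 60% HFD. Of 6 kidney tubule markers, *Kap*, *Slc34a1* and *Slc22a6* rose with the 60% HFD, with a summed 63.3 to 308 and 24.8 to 482. Of 8 skeletal muscle markers, 5 fell with the 40% HFD, *Ckm*, *Myh4*, *Myh1*, *Tnnt3* and *Tnni2*, and *Myh4* also with the 60% HFD. Of 8 adipocyte markers, *Lep* rose and *Pparg* fell with the 60% HFD, and *Adipoq*, at whose locus the knock-in lies, fell in CCL19-KI mice. Apart from the hepatocyte list, the part of these lists in the results for the members was not tested.

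**Figure D5:**
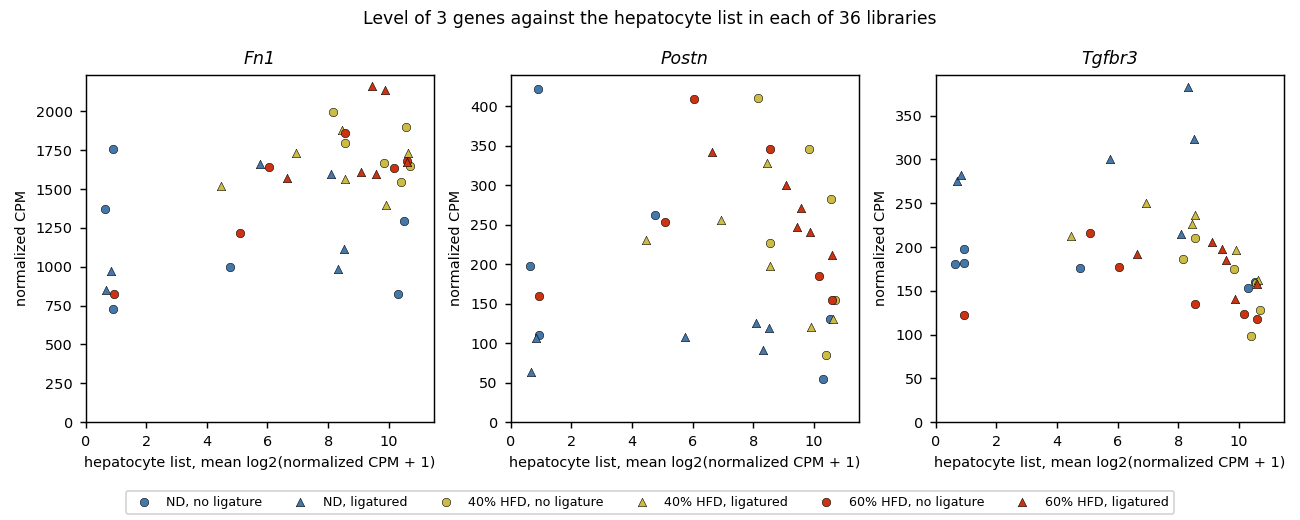
Normalized CPM of *Fn1*, *Postn* and *Tgfbr3* in each of 36 libraries against the mean log2(normalized CPM + 1) of 8 hepatocyte markers, by diet and ligature. *Fn1* is higher where the list is higher (r = 0.54 with both on the log2 scale), whereas *Postn* shows little relation (r = 0.05).

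Across the 36 libraries, the members fell into pairs that moved together. On the log2 scale, *Tgfb3* had a Pearson r of 0.70 with *Tgfbr2* and 0.69 with *Tgfbr3*, and *Tgfb2* one of 0.66 with *Tgfb3*. *Tgfb1* went instead with *Postn* (0.65) and *Tgfbr1* (0.60), and had an r of 0.02 with *Tgfb3*. *Postn* had an r of 0.66 with *Lox* and 0.63 with *Fn1*. With the marker lists, *Tgfbr2* (0.83), *Tgfb3* (0.75) and *Tgfb2* (0.67) had their highest r with the fibroblast and progenitor list. *Tgfb1* (0.64) and *Postn* (0.60) had their highest with the macrophage list, with which *Tgfbr2* had an r of 0.70. The libraries share groups and tissue makeup, so these values describe this set of libraries only.

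The 2 genes whose pattern over the 36 libraries was most like that of each member, by Pearson r on the log2 scale, were *Necap2* (0.91) and *Vat1* (0.90) for *Tgfb1*, *Pdlim4* (0.85) and *Snhg18* (0.83) for *Tgfb2*, and *Ogn* (0.92) and *Bicc1* (0.89) for *Tgfb3*. Those of the receptors were *Spcs3* (0.76) and *Rasa1* (0.75) for *Tgfbr1*, *Plat* (0.90) and *Kdelc2* (0.90) for *Tgfbr2*, and *Slc43a3* (0.88) and *Rgma* (0.88) for *Tgfbr3*. Those of the targets were *Dpp7* (0.77) and *Plxnc1* (0.76) for *Fn1*, *Rftn1* (0.84) and *Grk5* (0.83) for *Postn*, and *Gdf6* (0.82) and *Col16a1* (0.80) for *Lox*.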

How the data were processed

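RNA was extracted from eWAT of 36 mice after removal of the lymph nodes, depleted of ribosomal RNA and sequenced as directional libraries. The authors trimmed reads with Trimmomatic 0.38, mapped and counted them with Bowtie2 and RSEM 1.3.0, and deposited 1 table of counts normalized with edgeR, whose unit is treated as a signal. The study's methods name mm10 and the submitters' processing notes GRCm39, so coordinates are those of GENCODE M21 (GRCm38), which holds 24634 of the 24750 identifiers. Every value was a whole multiple, within 0.01, of what 1 read is worth (0.0472 to 0.0834 normalized CPM, with 11962228 to 21581595 reads per library), so values are CPM scaled by the authors' factors and read counts were recovered. A floor of 3 reads covers counting error only. The intervals given for fold changes come from the limma fits, so they measure the spread between these mice.

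Groups followed the sample labels. Series text that has all groups ligatured disagrees with the labels of 18 libraries. Genes at 1 normalized CPM or more in 3 libraries were tested with limma 3.58.1 (R 4.3.3) on log2(normalized CPM + 1), a scale that understates changes of low genes, with a trended prior and Benjamini-Hochberg adjustment over all genes of the fit, at a threshold of 0.05. All 36 mice were fitted for averaged, ligature and difference contrasts (17852 genes), and the 18 ligatured (16653 genes) or 18 other mice (16923 genes) for contrasts of diet or genotype within a state. Errors are SE for fold changes and SD for levels. edgeR 4.0.16 on the recovered reads was an alternative. The labels tie no mice to cages or litters, so p-values measure the spread between these mice. Replicate numbers did not mark pairs.

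Named genes are the 9 members, of the pathway lists up to the 4 called genes with the largest change per list and averaged comparison, and for each member the 2 genes outside the lists with the most similar pattern. The uncalled SMAD, response and collagen genes and the marker genes were named after their values were seen, and 1 gene of the lists enters the counts but is not reported here. Members and lists were chosen with earlier results of these data known. Score covariates are the mean log2 level of each marker list. Leaving out the hepatocyte-rich libraries (9, mean log2 level of 10 or more), the 2 epididymal libraries (above 5) and the 2 libraries at odds with their genotype labels, and fitting each ligature state alone, were chosen after seeing the data. Without the hepatocyte-rich libraries, the ND CCL19-KI, 40% HFD WT and 60% HFD WT groups without ligature held 1 mouse each. The scripts were tested on simulated data.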

Additional observations from a re-analysis of the deposited data

How the results depend on the processing

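None of the 16 member values that were called reversed under any of 15 alternatives or the 5 others that were added after seeing the data. Of 281 values under another setting, 222 kept their direction and call, as did 539 of 576 values with 1 library left out. The 6 calls of averaged comparisons were kept whichever library was left out. The causes of the changes below were not tested. For the settings below, the share of all genes called was taken only without the 2 libraries at odds with their labels. The other counts have no such share beside them, so a higher or lower count is not a result about these genes. Counts of members called are given in the order 12 groups, 60% HFD against ND, 40% HFD against ND and 60% against 40% HFD unless named otherwise. They were 2, 4, 1 and 0, and ranged over 2 to 3, 4 to 6, 1 to 2 and 0 to 1 with 1 library left out. For the genotype and the ligature, averaged, they were 0 and 1 whichever library was left out.

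For pairs of member and comparison, 1 was called for genotype within a state, 8 for diets within a state, 1 for the ligature within a group and 0 for differences between effects, with ranges of 0 to 2, 4 to 10, 0 to 2 and 0 to 1 without 1 library. Of the pathway genes, 12 were called for the 60% HFD, 4 for the 40% HFD, and 0 between HFDs, for the genotype and for the ligature, with ranges of 7 to 15, 2 to 7, 0 to 1, 0 to 0 and 0 to 2.

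Sample quality weights raised the counts most, to 9 members for the 12 groups, 8 for the 60% HFD, 4 for the 40% HFD and 1 between HFDs, to 5, 29, 8 and 6 pairs for genotype, diets, ligature and differences, and to 30, 25, 1, 8 and 12 pathway genes for the 60% HFD, the 40% HFD, between HFDs, genotype and ligature. The criteria of the study (p of 0.05 or less without adjustment, with a ratio of 1.5 or more, or 0.67 or less) gave 1 member for the 60% HFD and 0 for the ligature, 2, 15, 4 and 1 pairs, and 6, 2 and 5 pathway genes for the 60% HFD, between HFDs and ligature. With the hepatocyte score as a covariate, 2 members were called for the 60% and 0 for the 40% HFD, with 0 pairs for genotype and 4 for diets, and 5, 1 and 1 pathway genes for the 60% HFD, the 40% HFD and the ligature. The smooth muscle score left 0 members and 1 pathway gene for the 40% HFD and 5 pairs for diets, and the epididymis score 1 pathway gene for the 40% HFD, 0 pairs for genotype and 4 for diets.

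Without the 9 hepatocyte-rich libraries, 1 member was called for the 12 groups, 1 for the 60% HFD, 0 for the 40% HFD and 0 for the ligature, with 0 pairs for genotype and 2 for the ligature, and 0 pathway genes for either HFD. Without the 2 epididymal libraries, 1 member and 6 pathway genes were called for the 60% HFD, 2 pathway genes for the ligature, 0 pairs for genotype, 2 for the ligature and 1 for differences. Without the 2 libraries at odds with their labels, 2 pathway genes were called for the genotype. In ligatured mice alone, 3 members, *Fn1* not among them, and 8 pathway genes were called for the 40% HFD, and in the other mice alone 0 members and 0 pathway genes for either HFD. No filter, quantile normalization and edgeR each left 0 pairs for genotype, quantile normalization 0 for the ligature, and edgeR and the filter at a mean of 5 gave 1 for differences. The fit of all 36 mice gave 4 pairs for diets, and the fit of only the mice compared 1 member between HFDs.

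Samples that share a replicate number did not deviate together (median correlation −0.0153 over 198 pairs, against 0.0172 over 396 pairs with different numbers). With the replicate block, 6 pairs were called for diets, without *Postn* in ligatured WT mice (adjusted p = 0.0539) and *Tgfb3* in ligatured CCL19-KI mice (adjusted p = 0.0542), and no other call of a member changed. The lowest value of any member was 50 reads, and whether depth or the number of mice limited the calls was not tested.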
